A study of Mus musculus with 6 samples.

Results

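The IL-1 family ligands, receptors and caspase-1 were examined in RNA-seq of the colon epithelium. The family was taken as a list of 10 genes named by symbol, out of 52550 genes listed in each file, and all 10 were found: the ligands Il1a, Il1b, Il18 and Il33, the inhibitors Il1rn and Il18bp, the receptor genes Il1r1, Il1rap and Il1r2, and the protease gene Casp1. The list compares leukocyte-type members (Il1b and Il1r2) with epithelial-type members (Il18 and Il1rn). Epithelium was detached from the colon with EDTA and DTT, with no sorting of cells named, in 3 Zfp90fl/fl mice and 3 Zfp90ΔIEC mice. Both groups were male C57BL/6 mice of 6 to 8 weeks per the labels, and Zfp90 carries loxP sites in both. In Zfp90ΔIEC mice a Cre driven by the Villin promoter removes part of Zfp90 in the intestinal epithelium, while other cell types keep the gene. All mice, the controls included, received AOM-DSS, a model of colitis-associated colorectal cancer. The carcinogen azoxymethane was injected at 10 mg/kg, and after 5 days the mice were given 3 cycles of 7 days of 2% dextran sulfate sodium, which damages the colonic lining, and 14 days of regular water per the labels, until day 80. The methods of the study differ from the labels in the concentration of dextran sulfate sodium and in the age. The genotypes were housed apart after weaning, so cage and genotype cannot be told apart.

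The IL-1 family carries alarm signals of epithelia and myeloid cells. Interleukin-1β (Il1b) and interleukin-18 (Il18) are made as inactive precursors that caspase-1 cuts once an inflammasome has assembled, whereas interleukin-1α (Il1a) and interleukin-33 (Il33) act when damaged cells release them. Interleukin-1α and interleukin-1β bind the receptor Il1r1, which signals together with the accessory protein Il1rap through MyD88 to NF-κB. The antagonist Il1rn occupies Il1r1 without signalling, the decoy receptor Il1r2 binds the ligands without signalling, and Il18bp captures interleukin-18. In the colon Il18 is known as an epithelial product, and Il1b as a product of myeloid cells.

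The members are spread over 6 chromosomes of GRCm38 in the GENCODE M21 annotation, used here for positions only since the files carry none. Il1a (chr2:129299610-129309972, minus strand) and Il1b (chr2:129364570-129371139, minus strand) lie next to each other, and Il1rn is on the same chromosome (chr2:24336853-24351494, plus strand). Il1r2 (chr1:40074079-40125231) and Il1r1 (chr1:40225080-40317257) are also close together, both on the plus strand. Casp1 (chr9:5298517-5307265) and Il18 (chr9:50554827-50581840) are on the plus strand of chromosome 9. Il1rap (chr16:26581704-26730117) and Il33 (chr19:29925114-29960718) are on the plus strand and Il18bp (chr7:102014885-102018690) on the minus strand.

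Promoter sequence is shown for Il1a and Il1b because these neighbouring ligand genes had low values together in Zfp90ΔIEC mice. Each stretch of 30 bases is read 5′ to 3′ on the minus strand from RefSeq promoter windows of GRCm38.p6, with the letters TATAAA in capitals. They begin 32 bases before the annotated start in Il1a (chr2:129309987-129310016) and 31 bases before it in Il1b (chr2:129371153-129371182).
Il1a: cttgaggaagacTATAAAaaggcagagaag
Il1b: gctttttaggacTATAAAacaagggaggga
The letters TATAAA on either strand were in 13.6% of 32851 promoter windows that run from 250 bases before to 50 bases after a start. They were also in a window of Il18, Il33 and Il1rn, so 5 of the 10 members held them. Some members have several windows, and counted as windows it was 6 of 14. In Il33, which like Il1a did not pass the test between genotypes, they begin 29 bases before one of its starts, close to their place in Il1a and Il1b. In Il18 they lie 175 bases before the start, and in Il1rn 15 bases after one. The AP-1 letters TGANTCA, in 7.81% of all windows on either strand, were in 2 of the 14 member windows, from Il1a and Il1rn. These letters begin 12 bases before the start of Il1a, apart from its TATAAA, and 141 bases before one of the starts of Il1rn.
Il1a: gcagagaagccTGACTCAgacttaagtctc
Il1rn: ttctgctagacTGAGTCAcgcctctggaag
These are minus strand chr2:129309966-129309995 for Il1a and plus strand chr2:24336708-24336737 for Il1rn. A match of letters is a description and not a binding site.

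Values are FPKM, a fragment count scaled to transcript length and to the depth of the sample, so levels can be compared between genes. Estimated depth was similar in the samples, at 26.2 to 29.2 M fragments, and the FPKM of all genes summed to between 429999 and 446674. Zfp90 itself was between 0.490 and 0.630 FPKM in Zfp90fl/fl samples and between 0.0846 and 0.195 FPKM in Zfp90ΔIEC samples, which fits the labels. For Zfp90ΔIEC replicates 2 and 3 the genotype field of the labels names another Zfp gene, and their titles were used. The epithelial markers Epcam (554 to 608 FPKM over the 6 samples) and Cdh1 (244 to 262 FPKM) were high in each sample. The labels number the samples as replicates, and p-values measure only the spread between these samples.

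The family was dominated by Casp1 and Il18, which together made up 92.2% of the summed FPKM of the 10 members in Zfp90fl/fl mice and 94.6% in Zfp90ΔIEC mice. In Zfp90fl/fl mice the order of mean levels was Casp1 (130 ± 8.22 FPKM, SD, n = 3), Il18 (83.6 ± 11.9), Il1rn (6.68 ± 0.280), Il1r1 (4.16 ± 0.0214) and Il1b (3.65 ± 0.551). The ranges of Il1r1 and Il1b overlapped. The other 5 members were below 1 FPKM on average, from Il18bp (0.887 ± 0.168) and Il1rap (0.887 ± 0.0306) over Il1r2 (0.806 ± 0.0412) and Il33 (0.540 ± 0.217) to Il1a (0.436 ± 0.217). Of these, Il18bp overlapped with both Il1rap and Il1r2, and Il33 overlapped with Il1a. In Zfp90ΔIEC mice Il1b fell in this order from place 4 or 5 to place 7 or 8 in each sample, and Il1rn and Il1r1 overlapped.

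**Figure D1:**
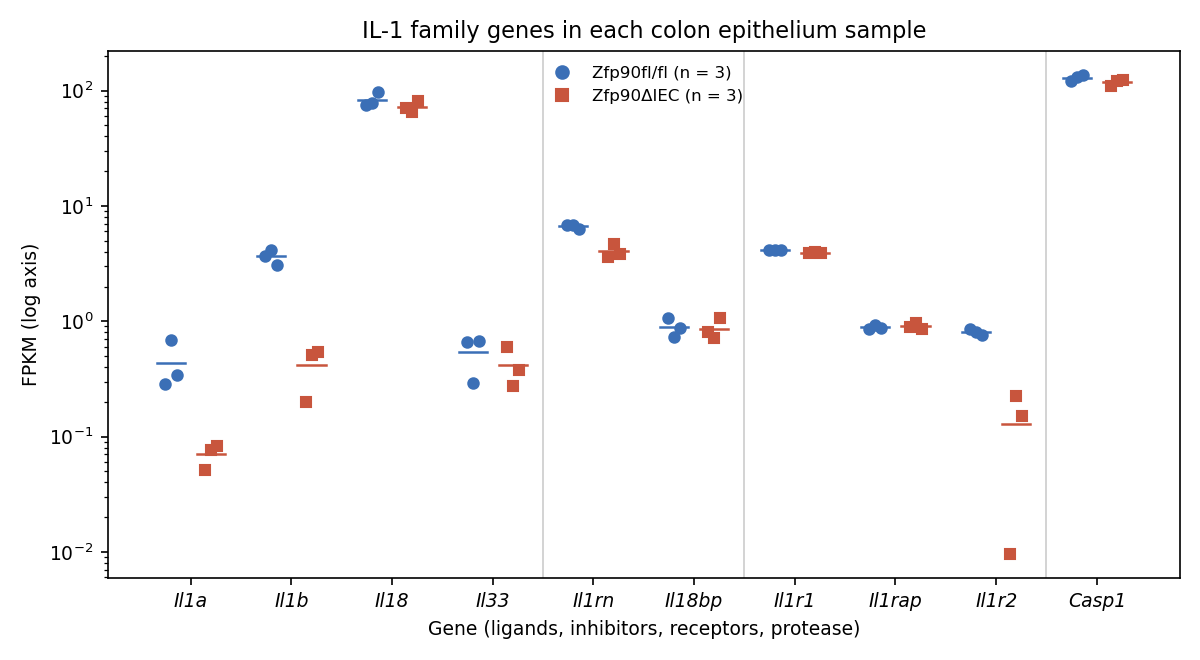
FPKM of each of the 10 genes on a log axis, with a point for each sample (circles Zfp90fl/fl, squares Zfp90ΔIEC, n = 3 each) and a line at each group mean. The groups are separate for Il1a, Il1b, Il1rn, Il1r1 and Il1r2, while Casp1 and Il18 stand above 60 FPKM in every sample.

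Between genotypes, Il1b was the 1 member past the threshold in the test over all genes. It was 8.79-fold lower by mean FPKM in Zfp90ΔIEC mice. Il1b reached the filter of that test through its Zfp90fl/fl samples only, and its adjusted p from limma without the filter was 0.0499. Il1a and Il1r2 had Zfp90ΔIEC means of 16.1% and 15.9% of the Zfp90fl/fl means, and Il1rn of 60.8%, without passing that test. Il18, Casp1, Il1r1, Il1rap, Il18bp and Il33 had means of between 77.3% and 103% of those of Zfp90fl/fl mice. The test was limma on log2(FPKM + 1), two-sided, with Benjamini-Hochberg adjustment over 11564 genes that reached 1 FPKM in 3 or more samples and a threshold of an adjusted p under 0.05. A pseudocount of 1 makes the log2 difference of genes near or below 1 FPKM smaller than that of their means. Il1b, Il1rn, Il1r1, Il18 and Casp1 passed this filter, and the other 5 members take their values from the same test over all 27805 genes above 0 in some sample. Of the 10 members, 1 passed and it was lower, where 0.199% of the 11564 genes passed in either direction and 0.13% were lower, and 0.0539% of the 27805 genes passed without the filter, 0.036% of them lower. All 3 Zfp90ΔIEC samples were below all 3 Zfp90fl/fl samples in 5 of the 10 members, Il1a, Il1b, Il1rn, Il1r1 and Il1r2, and above them in none. Among the 17013 genes with a mean of at least 0.1 FPKM, as all 10 members had, 11.9% were lower without overlap. The median log2 difference was -0.17 over the members and -0.02 over the 11564 genes. The study itself picked Il1a, Il1b and Il1r2 for display from these same samples, so their direction is not independent evidence. For Il1b the study also reported real-time PCR, with a lower level in Zfp90ΔIEC epithelium after AOM-DSS. After antibiotics it reported similar Il1b levels in the genotypes. Whether the PCR used the mice sequenced here is not given in the sources used here.

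**Figure D2:**
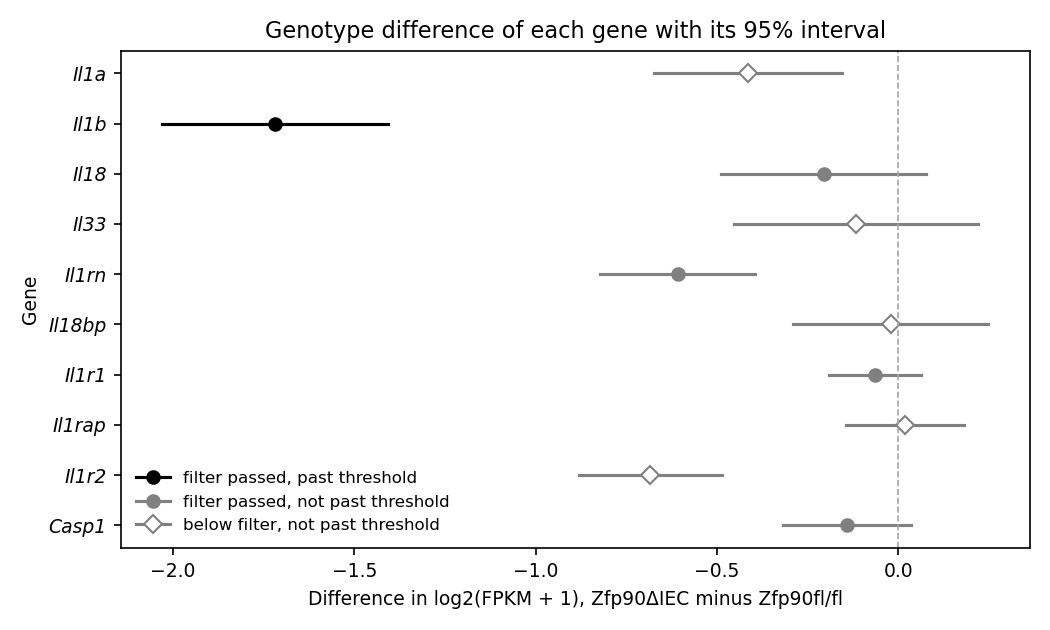
Difference in log2(FPKM + 1) of each gene, Zfp90ΔIEC minus Zfp90fl/fl, with its 95% interval from limma (filled circles passed the filter on low values, open diamonds did not). Il1b at -1.72 is past the threshold, and the intervals of Il1a, Il1rn and Il1r2 also lie below 0 without an adjusted p under the threshold.

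Among the ligands, Il1b stood at 3.67, 4.19 and 3.08 FPKM in the Zfp90fl/fl mice (replicates 1, 2 and 3, the order used for all values) and at 0.199, 0.508 and 0.537 FPKM in the Zfp90ΔIEC mice. The groups lay far apart, and the highest Zfp90ΔIEC sample was at 14.7% of the Zfp90fl/fl mean. The log2 difference was -1.72 (SE 0.131, adjusted p = 0.00823 from limma), and the log2 ratio of the mean FPKM was -3.14. At the estimated depth, the Zfp90fl/fl values stand for about 131, 162 and 120 fragments and the Zfp90ΔIEC values for about 8, 20 and 21. Il1b reached the filter of 1 FPKM through its Zfp90fl/fl samples only. It passed in each alternative run, from an adjusted p of 0.00853 to 0.0499, the latter with no filter on low values. Its antisense neighbour Il1bos was at or near 0 (mean 0.00246 FPKM).

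Il1a, the ligand that acts without caspase-1, was measured at 0.283, 0.683 and 0.341 FPKM in Zfp90fl/fl mice and at 0.0509, 0.0769 and 0.0825 FPKM in Zfp90ΔIEC mice. All Zfp90ΔIEC samples were low and the groups did not overlap, with Zfp90fl/fl replicate 2 standing highest. The log2 difference was -0.41 (SE 0.105, adjusted p = 0.284 from limma). These values rest on about 15, 39 and 19 fragments against 3, 4 and 5, which limits the precision. Gm14023, a transcript on the opposite strand that shares 8217 bases of its span with Il1a, was measured at 0.359 ± 0.0705 and 0.464 ± 0.0692 FPKM (SD, n = 3 each), with the higher mean in Zfp90ΔIEC mice and groups that overlapped. Libraries were strand-specific, but whether counting used the strand is not given in the sources used here.

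Il18, the epithelial ligand, was at 75.1, 78.5 and 97.1 FPKM in Zfp90fl/fl mice and at 70.0, 65.4 and 81.1 FPKM in Zfp90ΔIEC mice. The groups overlapped. The log2 difference was -0.21 (SE 0.119, 95% interval -0.49 to 0.08, adjusted p = 0.481 from limma), so a fall as large as that of Il1b lies outside the interval of Il18. Il18 shares parts of its span with Tex12 (mean 1.71 FPKM) and Bco2 (mean 11.6 FPKM) on the opposite strand. Il33, a nuclear alarm cytokine, was at 0.661, 0.289 and 0.669 FPKM against 0.600, 0.276 and 0.375 FPKM, with groups that overlapped over nearly their whole range. Its log2 difference was -0.12 (95% interval -0.45 to 0.22, adjusted p = 0.785 from limma).

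Of the inhibitors, Il1rn, the IL-1 receptor antagonist, was at 6.80, 6.88 and 6.36 FPKM in Zfp90fl/fl mice and at 3.63, 4.72 and 3.83 FPKM in Zfp90ΔIEC mice. The samples did not overlap, and Zfp90ΔIEC replicate 2 lay nearest to the Zfp90fl/fl samples. The log2 difference was -0.61 (SE 0.0902, 95% interval -0.82 to -0.39), with an adjusted p of 0.0664 from limma that missed the threshold. Without Zfp90ΔIEC replicate 2 the adjusted p from limma was 0.0437, and Il1rn passed in this 1 of 12 alternatives only. The adjusted p was 0.0931 to 0.194 when any other sample was left out, and 0.157 with no filter. Il18bp, which captures interleukin-18, was at 1.06, 0.723 and 0.881 FPKM against 0.813, 0.710 and 1.06 FPKM. Its groups overlapped and its log2 difference was -0.02 (95% interval -0.29 to 0.25, adjusted p = 0.954 from limma).

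Of the receptors, the decoy Il1r2 was at 0.848, 0.803 and 0.766 FPKM in Zfp90fl/fl mice and at 0.00960, 0.224 and 0.150 FPKM in Zfp90ΔIEC mice. All Zfp90ΔIEC samples were low, and the value of replicate 1 is under 1 fragment at the estimated depth. The log2 difference was -0.68 (SE 0.0797, adjusted p = 0.114 from unfiltered limma). With a filter at 0.1 FPKM in 3 samples, which Il1r2 passes, the adjusted p from limma was 0.0419, the 1 of 12 alternatives in which it passed. In the others the adjusted p was 0.165 to 0.248 when a sample was left out. It was 0.194 with a pseudocount of 0.1 and 0.307 with the replicate number as a block. The signalling receptor Il1r1 was at 4.14, 4.18 and 4.16 FPKM against 3.93, 4.02 and 3.88 FPKM. These groups were separate too, but by little, with a log2 difference of -0.06 (SE 0.0536, 95% interval -0.19 to 0.06, adjusted p = 0.639 from limma). The accessory chain Il1rap was at 0.861, 0.920 and 0.879 FPKM against 0.898, 0.971 and 0.862 FPKM, and its groups overlapped with a log2 difference of 0.02 (95% interval -0.15 to 0.18, adjusted p = 0.933 from limma). The decoy thus stood at a low level in Zfp90ΔIEC mice, without passing the unfiltered test. The intervals of both signalling chains stayed within 0.2 of 0 in log2(FPKM + 1). For Il1rap, below 1 FPKM, the pseudocount makes this interval narrower than it would be for a ratio of FPKM.

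Casp1, the protease that matures interleukin-1β and interleukin-18, was the highest member at 121, 131 and 137 FPKM in Zfp90fl/fl mice and 109, 121 and 123 FPKM in Zfp90ΔIEC mice. The upper Zfp90ΔIEC samples reached into the range of the Zfp90fl/fl samples. The log2 difference was -0.14 (SE 0.0745, 95% interval -0.32 to 0.04, adjusted p = 0.440 from limma), and the values stand for about 4527 to 5883 fragments a sample.

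Setting members against each other within a sample removes what a sample's scaling adds to both. The antagonist Il1rn stood at 1.85, 1.64 and 2.06 times the FPKM of Il1b in Zfp90fl/fl mice and at 18.2, 9.28 and 7.13 times in Zfp90ΔIEC mice. The receptor Il1r1 stood at 4.88, 5.21 and 5.43 times the decoy Il1r2 in Zfp90fl/fl mice and at 17.9 and 25.8 times in Zfp90ΔIEC replicates 2 and 3. In Zfp90ΔIEC replicate 1 it stood at least 51.6-fold higher, with Il1r2 set to a floor of 3 fragments in that library. These 2 ratios did not overlap between genotypes. The ratios of Il18 to Il1rn (11.0, 11.4 and 15.3 against 19.3, 13.9 and 21.2), of Il18 to Il18bp (71.0, 109 and 110 against 86.2, 92.2 and 76.4) and of Casp1 to Il18 (1.61, 1.67 and 1.41 against 1.55, 1.85 and 1.52) overlapped. The mean log2(FPKM + 1) of the leukocyte-type members Il1b and Il1r2, less that of the epithelial-type members Il18 and Il1rn, was -3.14 ± 0.162 in Zfp90fl/fl mice and -3.93 ± 0.103 in Zfp90ΔIEC mice (SD, n = 3 each). The difference of -0.79 became -2.07 with a pseudocount of 0.1, since Il1r2 and Il1b lie low. The epithelial-type members were not alike, since Il1rn had separate groups and Il18 did not.

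**Figure D3:**
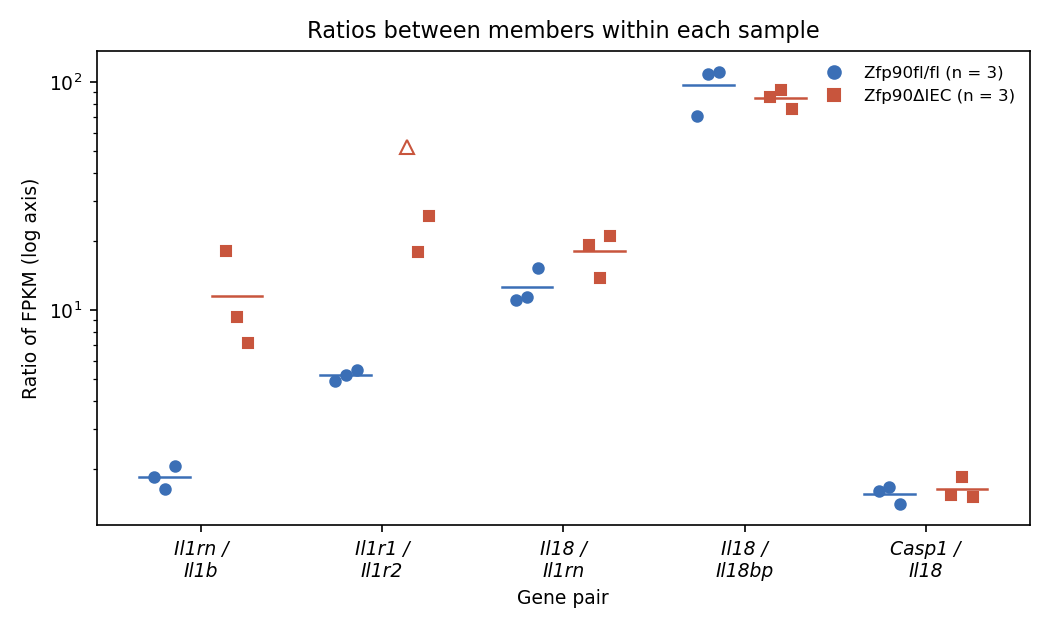
Ratio of the FPKM of 2 genes within each sample on a log axis, with a line at each group mean (circles Zfp90fl/fl, squares Zfp90ΔIEC, n = 3 each). The open triangle is a lower bound of 51.6 for Zfp90ΔIEC replicate 1, a group drawn with no mean, and the ratios of Il1rn to Il1b and of Il1r1 to Il1r2 are higher in all Zfp90ΔIEC samples, and the other ratios overlap.

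Several sums of leukocyte markers were lower in Zfp90ΔIEC mice, as Il1b was. All 7 of 7 pan-leukocyte markers, Ptprc among them, were lower without overlap, as were 11.9% of the genes with a mean of at least 0.1 FPKM, but 0 of the 7 passed the limma test and 6 had an unadjusted p under 0.05. They had a summed level of 7.74 to 9.21 FPKM against 3.86 to 5.20 FPKM. The log2 ratio of the means was -0.93 with an exact permutation p of 0.1 (two-sided, n = 3 against 3), the smallest that 10 splits can give. The 12 macrophage and monocyte markers summed to 30.0 to 34.1 FPKM against 16.1 to 18.4 FPKM, most of it from Cd14. Of the 8 with a mean of at least 0.1 FPKM, 5 were lower without overlap against that 11.9%. Of the 12, 2 passed limma and were lower, Cd14 (adjusted p = 0.0219 with the filter) and Itgam (adjusted p = 0.0199 from unfiltered limma). Itgam is named after its values were seen. Over all genes 0.199% passed with the filter and 0.0539% without it. The 6 dendritic cell markers summed to 0.837 to 0.878 FPKM against 0.115 to 0.398 FPKM, and both of those with a mean of at least 0.1 FPKM were lower without overlap. Of these 6 markers 0 passed limma. No marker of these 3 lists was listed at 0 in every Zfp90ΔIEC sample. In bulk samples, fewer cells of a type and less RNA per cell cannot be told apart, and the part of these cells in the values of Il1b, Il1r2, Il1a and Il1rn was not tested.

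Of the 12 neutrophil markers, Cxcr2, S100a8, S100a9, Retnlg and Mmp8 were listed at 0 in every Zfp90ΔIEC sample and Ngp in all samples. Retnlg was above 0 only in Zfp90fl/fl replicate 1 and Mmp8 only in Zfp90fl/fl replicate 2. Elane and Camp, named after their values were seen, went the other way, above 0 only in Zfp90ΔIEC replicate 1. The share of all genes listed in these ways was not counted. Of the 4 neutrophil markers with a mean of at least 0.1 FPKM, 3 were lower without overlap, against 11.9% of all such genes. The sum given next covers all 12 markers. Their summed level of 25.4 to 47.3 FPKM against 21.9 to 33.0 FPKM came mostly from Ly6g (mean 29.0 FPKM) and overlapped. Without Ly6g, an alternative chosen after its values were seen, the other markers summed to 1.44 to 2.62 FPKM against 0.0116 to 0.0739 FPKM. Of the 12, 1 passed limma, Csf3r, at 0.267 against 0.00600 FPKM (adjusted p = 0.0177 from unfiltered limma). It is named after its values were seen. Over all genes 0.0539% passed without the filter. The 7 mast cell markers summed to 17.0 to 25.4 FPKM against 4.99 to 9.46 FPKM, with Fcer1a listed at 0 in every Zfp90ΔIEC sample. Without Mcpt1, their highest gene, they summed to 8.55 to 11.7 FPKM against 4.38 to 8.76 FPKM, which overlapped, and the log2 ratio went from -1.71 to -0.83. Of the 3 mast cell markers with a mean of at least 0.1 FPKM, 2 were lower without overlap, against 11.9% of all such genes. Of the 7 mast cell markers 2 passed limma, where 0.199% of all genes passed with the filter and 0.0539% without it. Mcpt2 of this list, named after its values were seen, reached the filter through Zfp90fl/fl samples only. The 6 B and plasma cell markers summed to 0.673 to 0.989 FPKM against 0.123 to 0.263 FPKM. The 8 T cell markers summed to 1.45 to 3.18 FPKM against 1.19 to 1.88 FPKM and overlapped. No marker of the B and plasma cell list or of the T cell list passed limma. The part of these cells in the members' values was likewise not tested.

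Relative to the summed pan-leukocyte markers, Il1b was at 0.452, 0.541 and 0.335 in Zfp90fl/fl mice and at 0.0517, 0.123 and 0.103 in Zfp90ΔIEC mice. Il1r2 was at 0.104, 0.104 and 0.0832 against at most 0.0197 in replicate 1, at the floor of 3 fragments, and 0.0544 and 0.0288 in replicates 2 and 3. Both ratios stayed separate between genotypes. The choice of list matters for such a ratio, since the marker lists differed in their change. The log2 ratio of means was -0.93 for the pan-leukocyte sum and -0.30 for the neutrophil sum. It was -5.33 for the neutrophil sum without Ly6g, which lies near 0 in Zfp90ΔIEC samples, and -3.14 for Il1b. The part of each cell type was not tested. The ratio of Il1rn to the pan-leukocyte sum was 0.836, 0.890 and 0.691 against 0.941, 1.15 and 0.736, and here the groups overlapped. The 12 colon epithelium markers summed to 11635 to 14171 FPKM against 14323 to 18227 FPKM, and without Car1, their highest gene, to 7602 to 8544 FPKM against 7975 to 8200 FPKM. The 8 stromal markers summed to 2.01 to 2.40 FPKM against 1.44 to 2.05 FPKM, the 6 endothelial markers to 0.416 to 0.588 FPKM against 0.627 to 0.691 FPKM. Without Pecam1 the log2 ratio of the endothelial sum turned from 0.35 to -0.38. The 9 squamous epithelium markers, among which Krt5, Trp63 and Ivl were listed at 0 in all samples, summed to 1.30 to 2.39 FPKM against 1.215 to 2.02 FPKM.

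**Figure D4:**
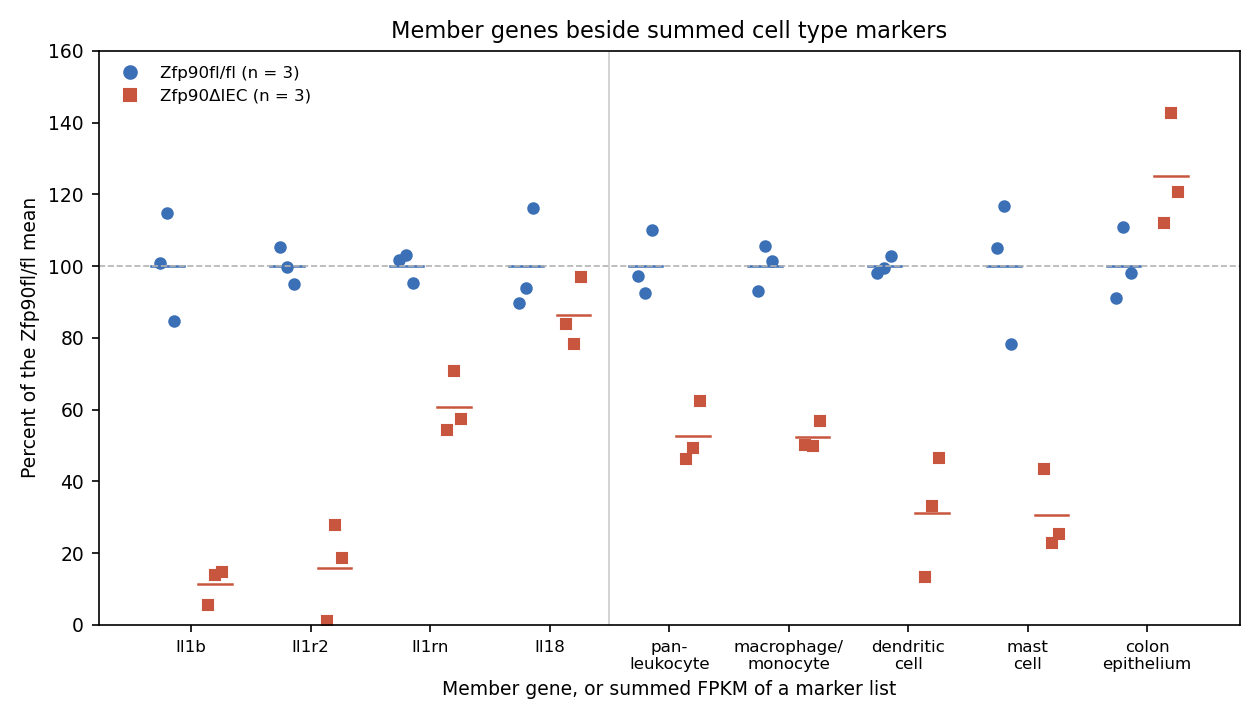
Each sample as a percent of the Zfp90fl/fl mean, for 4 members on the left and for summed FPKM of marker lists on the right, with a line at each group mean (circles Zfp90fl/fl, squares Zfp90ΔIEC, n = 3 each). In Zfp90ΔIEC samples Il1b lies at 5.47% to 14.7% and the pan-leukocyte sum at 46.2% to 62.3%, while Il18 lies at 78.3% to 97.0%. Lists not drawn include the T cell sum (1.45 to 3.18 FPKM against 1.19 to 1.88 FPKM), which overlapped. The neutrophil sum, also not drawn, overlapped as well (25.4 to 47.3 FPKM against 21.9 to 33.0 FPKM). Without Ly6g, left out after its values were seen, the neutrophil sum was 1.44 to 2.62 FPKM against 0.0116 to 0.0739 FPKM.

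The other IL-1 family genes were mostly near 0 in this tissue. Of 12 such genes, 4 were listed at 0 in all samples, 2 had a mean of at least 0.1 FPKM and 0 passed the limma test, while Sigirr, the 1 gene of them that passed the filter, had an unadjusted p under 0.05. Sigirr, an orphan receptor that dampens IL-1 signals, was at 8.49, 8.94 and 8.57 FPKM against 7.43, 8.20 and 7.09 FPKM, with separate groups and a log2 difference of -0.17 (SE 0.0664, adjusted p = 0.306 from limma). Il1rl2, the receptor of the IL-36 cytokines, was at 0.486 ± 0.152 against 0.643 ± 0.134 FPKM (SD, n = 3 each, adjusted p = 0.728 from limma), and its groups overlapped. Il18r1, a receptor chain of interleukin-18, was chosen here because the study also displayed it. It was at 0.152 ± 0.0368 against 0.0462 ± 0.0184 FPKM, and its separate groups gave a log2 difference of -0.14 (adjusted p = 0.224 from unfiltered limma).

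Upstream of the ligands, 20 genes of inflammasomes and cytokine processing were listed and 15 passed the filter. Of these 15, 0 passed the test in either direction, and 4 had an unadjusted p under 0.05, all lower, where 14.6% of the 11564 genes did and 8.09% were also lower. Their median log2 difference was -0.17. Casp4, the caspase that senses bacterial lipopolysaccharide in the cytosol, was at 10.4, 11.3 and 11.5 FPKM against 5.75, 6.69 and 8.29 FPKM, without overlap, with a log2 difference of -0.62 (SE 0.117, adjusted p = 0.0923 from limma). Naip5, a receptor for bacterial flagellin, had separate groups at 23.8 ± 0.600 against 19.4 ± 2.29 FPKM (adjusted p = 0.209 from limma). Nlrc4, its partner in the inflammasome, named after its values were seen, also had separate groups, at 17.5 ± 0.424 against 14.4 ± 0.462 FPKM (adjusted p = 0.109 from limma), and these 3 genes of 15 were without overlap, as 12.6% of the 11564 genes were lower without overlap. The sensor gene Nlrp3, below the filter and named after its values were seen, was at 0.190, 0.429 and 0.267 FPKM against 0 (as listed), 0.0483 and 0.0353 FPKM (adjusted p = 0.222 from unfiltered limma), without overlap. The pore former Gsdmd (53.5 ± 4.11 against 46.7 ± 4.81 FPKM), the membrane rupture gene Ninj1 (6.08 ± 0.671 against 4.66 ± 1.07 FPKM) and Txnip (325 ± 6.89 against 332 ± 23.9 FPKM) had groups that overlapped.

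Downstream of the receptor, 20 of 21 genes of IL-1 receptor signalling passed the filter, and 0 passed the test, with 0 at an unadjusted p under 0.05. Their median log2 difference was -0.04, near that of all genes. Myd88, the adaptor of the receptor, was at 15.1 ± 0.404 against 13.5 ± 1.38 FPKM (adjusted p = 0.442 from limma). The kinase gene Irak2 (7.93 ± 3.04 against 6.07 ± 1.39 FPKM), the NF-κB inhibitor Nfkbia (108 ± 10.3 against 120 ± 10.8 FPKM), Tnfaip3 (22.5 ± 7.36 against 22.9 ± 1.34 FPKM), which also restrains NF-κB, and the kinase gene Mapk14 (12.7 ± 5.23 against 13.5 ± 0.620 FPKM) overlapped between the groups. The sign of the Tnfaip3 and Mapk14 differences turned without Zfp90fl/fl replicate 2, in which both genes were lowest.

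Of 16 genes known to respond to IL-1, 9 passed the filter, 1 of these passed the test and was lower, and 0 were higher. Over the 11564 genes 0.199% passed, and 0.13% passed and were lower. Nos2 and Saa3 reached the filter through their Zfp90fl/fl samples only, so the 9 genes are not read as a group. Of the 11 genes of the list with a mean of at least 0.1 FPKM over all samples, 7 were lower without overlap, as were 11.9% of the 17013 such genes. Their median log2 difference without the filter was -0.42, and that of the 17013 genes was -0.019. Nos2, the inducible nitric oxide synthase, was at 1.80, 1.40 and 2.09 FPKM against 0.316, 0.161 and 0.423 FPKM, with a log2 difference of -1.08 (SE 0.124, adjusted p = 0.0434 from limma). All Zfp90ΔIEC samples were low, but the adjusted p was 0.114 without the filter and 0.0624 with a pseudocount of 0.1, and the call was also lost when any 1 sample was left out, at 0.0507 to 0.134. Saa3, an acute-phase protein, was at 1.82 ± 0.517 against 0.486 ± 0.319 FPKM (adjusted p = 0.0995 from limma). Ccl20, a chemokine of epithelium, was at 4.29 ± 1.03 against 2.04 ± 0.672 FPKM (adjusted p = 0.134), and Nfkbiz, an inducible cofactor of NF-κB, at 42.4 ± 3.36 against 30.6 ± 0.782 FPKM (adjusted p = 0.0664 from limma). Besides these 4 genes, Cxcl2 (1.57 against 0.930 FPKM), Ptgs2 (0.284 against 0.0725 FPKM) and Icam1 (0.893 against 0.674 FPKM), named after their values were seen, were those without overlap. Saa1 was at 114 ± 36.0 against 69.6 ± 37.0 FPKM and overlapped. Several genes of the list showed no such gap, as Cxcl1, a chemokine for neutrophils, at 7.27 against 8.19 FPKM and Tnf at 11.7 against 12.8 FPKM, both named after their values were seen.

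**Figure D5:**
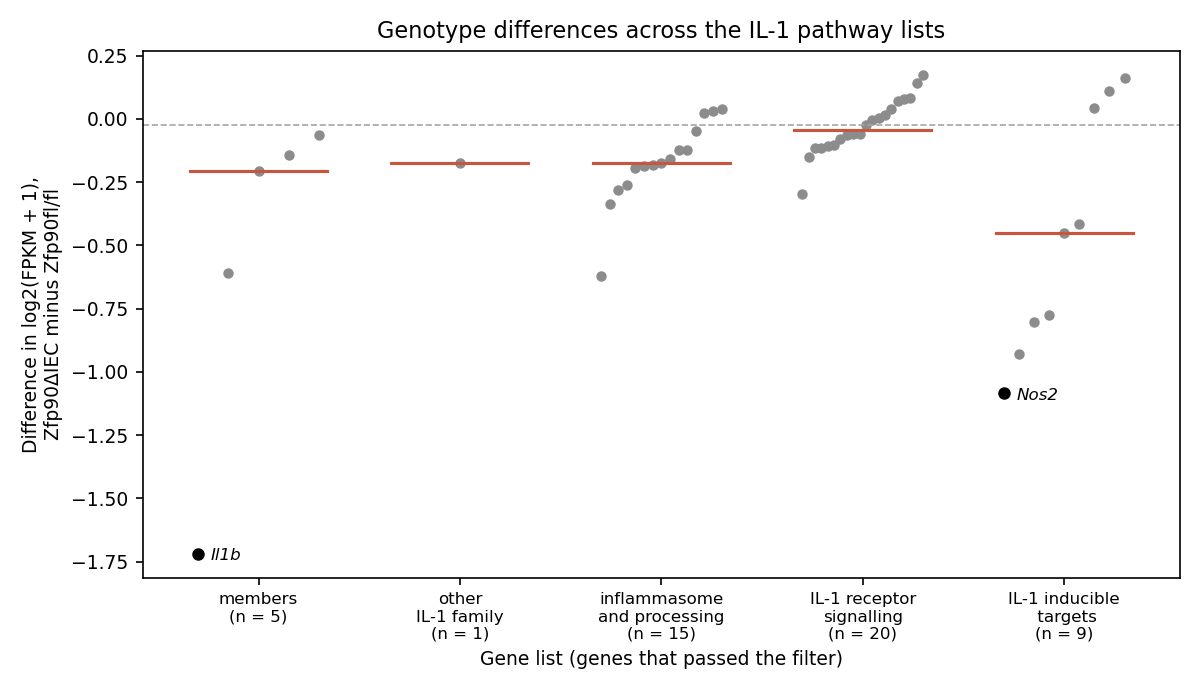
Difference in log2(FPKM + 1), Zfp90ΔIEC minus Zfp90fl/fl, of each gene that passed the filter on low values in the members and in 4 IL-1 pathway lists, with a red line at each list's median and a dashed line at the median of all genes. Il1b and Nos2, in black, are past the threshold, and with Saa3 they reached the filter through Zfp90fl/fl samples only, and the list of IL-1 receptor signalling lies around the dashed line.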

How the data were processed

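RNA-seq of colon epithelium was analysed in 3 Zfp90fl/fl and 3 Zfp90ΔIEC samples, grouped by their titles. Per the study's methods the authors aligned paired-end reads by TopHat and quantified transcripts by Cuffdiff. The deposited files hold 1 value per gene, 1 file a sample, with no unit named. The methods name a human genome, the files list mouse genes, and the submitters' processing notes list FastQC, STAR 2.5, Cuffnorm, DESeq 1.22.1 and mm9 with no role. The deposited values were taken as FPKM, from the use of Cuffdiff and Cuffnorm and from the values themselves.

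Of 52550 genes, 52403 were given a symbol through GENCODE M21 (GRCm38). Values were taken to log2(FPKM + 1), and genes that reached 1 FPKM in 3 or more samples entered limma 3.58.1 (R 4.3.3, intensity trend, Benjamini-Hochberg). Members below the filter come from the same test without it. Marker sums were compared by an exact permutation test over 10 splits. Pathway lists were counted, with no set test. Depth was estimated from the steps of low FPKM values of single-transcript genes; 45.6% to 50.0% of the values examined lay within 10% of a whole step, where 20% would without steps. A gene listed at 0 may still be expressed at a low level. Promoter windows come from RefSeq. The test was tried on simulated data. Python 3.11.15, pandas 2.3.3 and numpy 2.4.6 were used.

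The members and lists were chosen with earlier results of these data known. Besides the members and Zfp90, the genes named are other IL-1 family genes with a mean of at least 0.1 FPKM and, in each other pathway list, genes past the threshold, the 3 of largest difference and the 2 of highest level. For each marker list the sum, its highest gene and genes at 0 are given. Genes outside this rule are said to be so or serve as checks of tissue and overlap. Alternatives were a pseudocount of 0.1, no filter, a filter at 0.1 FPKM, quantile normalization, median ratio scaling, the replicate number as a block, leaving out each sample, and an adjusted p under 0.1. Those for pathway lists, and leaving out a marker list's highest gene, were added after the data were seen.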

Additional observations from a re-analysis of the deposited data

How the results depend on the processing

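Il1b stayed past the threshold and lower in all 12 alternatives, with a log2 difference from -2.93 to -1.60. These runs are not independent of each other. Apart from those with no filter or a filter at 0.1 FPKM, they kept the filter of 1 FPKM. Il1b reached that filter through its Zfp90fl/fl samples only, and with no filter its adjusted p from limma was 0.0499. Il1a, Il1r1, Il18, Il33 and Casp1 kept their direction and stayed short of the threshold in all 12. Il1rap and Il18bp also stayed short of it, and their differences near 0 changed sign in 1 and 2 alternatives. Of the members, 2 instead of 1 passed with a filter at 0.1 FPKM (Il1r2 added), and 1 to 2 when a sample was left out (Il1rn added without Zfp90ΔIEC replicate 2). Over all genes, 23 passed (8 higher and 15 lower), 13 with a pseudocount of 0.1, 15 with no filter, 176 at an adjusted p under 0.1, and 10 to 21 when a sample was left out, the fewest without Zfp90fl/fl replicate 2. Of the IL-1 inducible targets, 0 passed with a pseudocount of 0.1, with no filter and when any 1 sample was left out. The log2 difference of Tnfaip3 was -0.21 to 0.27 and that of Mapk14 -0.20 to 0.36 when a sample was left out, below 0 without Zfp90fl/fl replicate 2. The difference between leukocyte-type and epithelial-type members was -2.07 with a pseudocount of 0.1 and -0.89 to -0.74 when a sample was left out. The log2 ratio of the neutrophil sum was -0.47 to 0.050 when a sample was left out, reversing without Zfp90fl/fl replicate 3. That of the squamous sum was -0.29 to 0.27, reversing without Zfp90fl/fl replicate 2 (0.27) or Zfp90ΔIEC replicate 2 (0.082). The endothelial ratio of 0.35 was -0.38 without Pecam1. The cause was not tested.

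Samples with the same replicate number had deviations correlated at 0.194, 0.11 and 0.078, and samples with different numbers at -0.128 to 0.014. The same-number correlations were the higher ones but weak, and whether the number stands for a shared batch was not tested. The main test left the number out. With the replicate block 47 genes passed, 1 member (Il1b, adjusted p = 0.0377 from limma) and 2 IL-1 inducible targets (Nos2 and Saa3). The block changed no other call among the members.

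Depth limits Il1a, Il1r2 and the leukocyte markers, which rest on few fragments in Zfp90ΔIEC samples, and 3 mice a group limit every test.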
